A study of Homo sapiens with 18 samples.

Results

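The genes described here are 10 that act in bone mineral formation or in the bone cell lineage: PHOSPHO1, ALPL, RUNX2, SP7, SPP1, IBSP, MGP, ENPP1, ANKH and BMP2. They were found by symbol among the 58381 rows of each of 3 gene count tables, where each of the 10 symbols matched 1 row. PHOSPHO1 and MGP were chosen by their measured siFLI1 changes, which go opposite ways, and the other 8 for their role, with results of these data known. The siFLI1 changes of the 10 genes are therefore given as a description, without p-values.

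The tables come from RNA sequencing of TC-32, TC-71 and A673, 3 established lines derived from Ewing sarcoma, which arises in bone or soft tissue and carries the fusion EWSR1::FLI1. Each line has 3 libraries of cells transfected with siFLI1, a small interfering RNA against FLI1, and 3 with siNeg, a negative control, each at 20 nM. FLI1 reads come from fusion and unfused transcripts alike, and each line stands for 1 tumour. TC-32 and TC-71 were grown in RPMI medium and A673 in DMEM, and a time of 48 h stands in the column names of the 12 TC-32 and TC-71 libraries but in none of A673. Nothing in the labels says whether the 3 libraries of a group came from separate cultures, so the spread between them may be technical.

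Library totals ranged from 19685354 to 120993595 counts, and A673, the deepest line, had at least 114564479 in each library. Levels are given as CPM, counts scaled to library size with TMM factors within a line. With siFLI1, FLI1 fell to 48.9%, 35.9% and 23.5% of its siNeg level in TC-32, TC-71 and A673 (edgeR adjusted p = 1.85e-13, 8.88e-18 and 2.02e-16), with no overlap between the siRNAs. Of 7 Ewing sarcoma markers, all were above 3 counts in TC-32 and A673. In TC-71, 6 were, while CD99, whose X and Y chromosome copies have separate rows, had 0 counts in every library. The summed level of the 7 markers was lower in siFLI1 libraries of each line, at 239 to 244 CPM against 1589 to 1682 CPM in TC-32, 405 to 449 against 1933 to 1991 CPM in TC-71, and 754 to 757 against 2240 to 2318 CPM in A673. Most of each siNeg sum was CCND1, at 1212, 1437 and 1618 CPM with siNeg and 60.5, 274 and 474 CPM with siFLI1 (TC-32, TC-71, A673). Some markers fell far less, such as CD99 in TC-32 (165 to 148 CPM) and NKX2-2 in TC-71 (13.3 to 9.33 CPM). The part that the lower marker levels play in the results was not tested. Leukocyte, endothelial and epithelial markers summed to at most 12.8, 2.81 and 1.94 CPM in any library, and CD3E was at or under 3 counts in every group. Most of the leukocyte sum in TC-32 and A673 was CD68, which was higher with siFLI1. Its mean was 1.90 CPM with siNeg and 7.96 CPM with siFLI1 in TC-32, and 6.83 and 12.2 CPM in A673. In TC-71, CD68 had at most 3 counts.

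Bone mineral is calcium phosphate laid down on a collagen matrix, first inside matrix vesicles that bud from osteoblasts and chondrocytes. Its growth depends on the balance between inorganic phosphate, which forms the crystal, and inorganic pyrophosphate, which blocks it. PHOSPHO1 and ALPL produce phosphate, ENPP1 and ANKH supply pyrophosphate, and MGP and SPP1 are secreted proteins that bind mineral and restrain it. RUNX2 and SP7 are the transcription factors that commit cells to the osteoblast lineage, and BMP2 is a ligand that induces them.

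**Figure D1:**
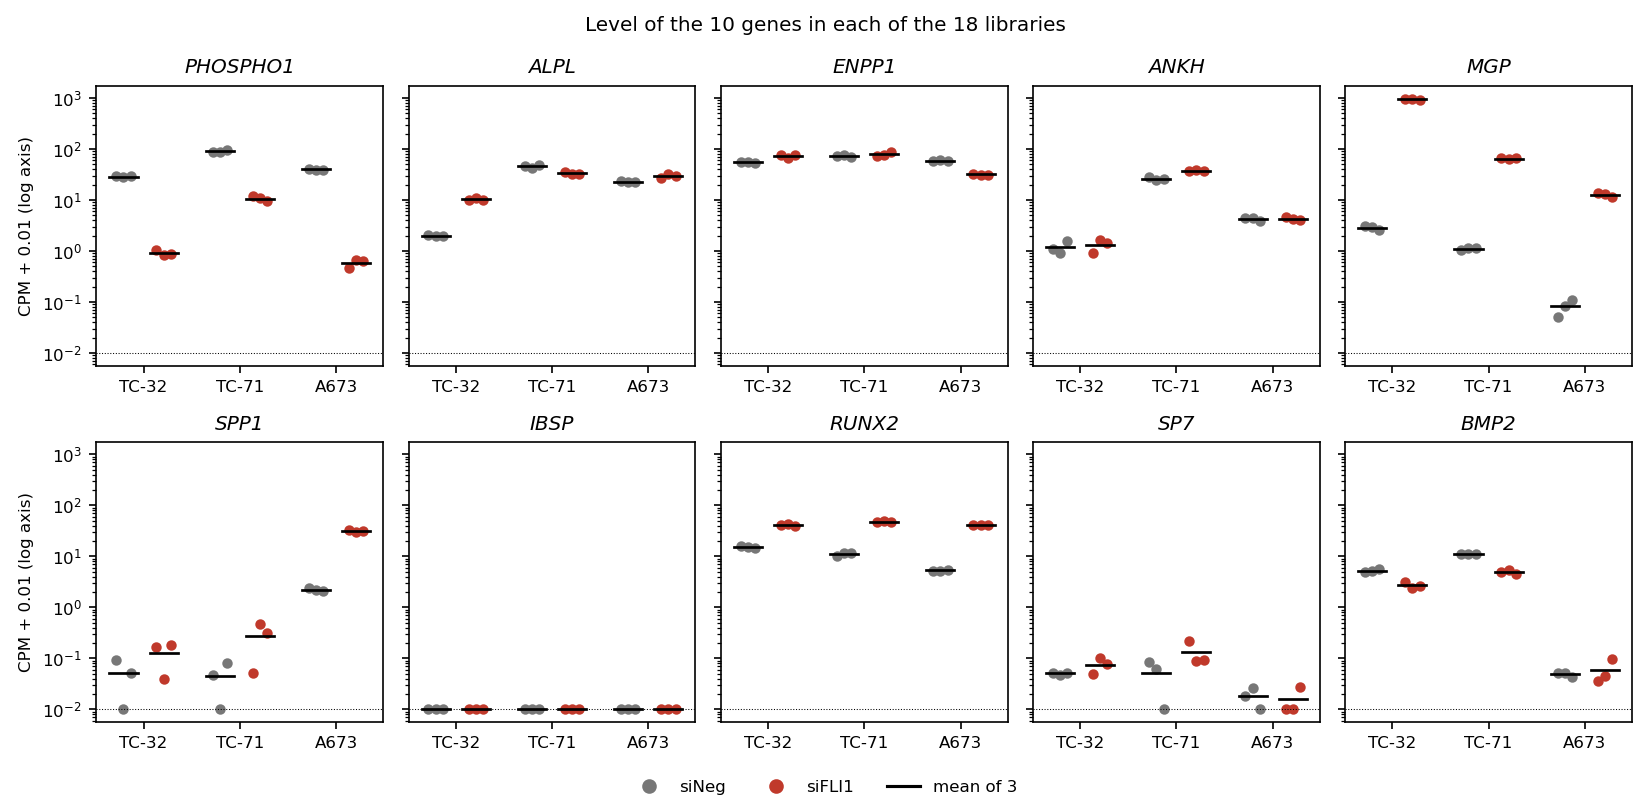
Level of each of the 10 genes in every library (points, CPM plus 0.01 on a log axis), by line and siRNA, with a bar at the mean of 3 libraries; the dotted line marks 0 counts. PHOSPHO1 is low and MGP and RUNX2 are high in every siFLI1 group, and IBSP lies at 0 throughout.

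PHOSPHO1, a phosphatase that frees phosphate from phosphocholine and phosphoethanolamine inside matrix vesicles, was much lower in siFLI1 libraries of each line. In TC-32, the 3 siNeg libraries held 29.0, 28.0 and 29.9 CPM and the 3 siFLI1 libraries 1.03, 0.832 and 0.880 CPM. The siNeg libraries of TC-71 held 89.1, 89.6 and 97.6 CPM against 11.7, 10.9 and 9.37 CPM with siFLI1. For A673 the values were 41.1, 39.6 and 39.7 CPM against 0.446, 0.661 and 0.639 CPM. Each siFLI1 library thus lay far below each siNeg library of its line, with means 31.6-fold, 8.63-fold and 69.0-fold lower for TC-32, TC-71 and A673. The log2 fold changes were, in that order, -4.99 (SE 0.117), -3.12 (SE 0.0713) and -6.11 (SE 0.0865). What remained was 27, 28 and 26 counts in TC-32 and 52 to 77 in A673, above the floor of 3 counts that a count of 0 allows, while TC-71 kept 11.6% of its siNeg level. In bulk RNA, fewer cells with the transcript and less transcript per cell cannot be told apart.

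PHOSPHO1 (ENSG00000173868.11) lies on the minus strand of chromosome 17, from 49223366 to 49230787 in GENCODE release 44 (GRCh38, the build that the submitters' processing notes name), and its exons overlap no other gene. EWSR1::FLI1 is known to bind tandem repeats of GGAA, so the genome was searched for runs of at least 6 consecutive GGAA on either strand. The nearest run to the PHOSPHO1 start lies 2.46 kb downstream of it, inside an intron, on the strand of the gene. Of 20033 coding genes, 0.699% had such a run as near, and the median distance was 196 kb. The run and its surroundings are shown because no other of the 10 genes had one within 46 kb; the stretch is chr17:49228241-49228384, minus strand, with each GGAA in capitals.
PHOSPHO1 intron: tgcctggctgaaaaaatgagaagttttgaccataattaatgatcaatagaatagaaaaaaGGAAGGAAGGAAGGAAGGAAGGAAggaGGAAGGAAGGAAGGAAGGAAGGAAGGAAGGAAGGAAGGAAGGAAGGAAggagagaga

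The stretch holds a run of 6 and, after an interruption, a run of 12 consecutive GGAA, 18 in all. Binding of the fusion was not measured in these data, and the match is a description of the sequence. For the other genes the nearest run lay 46.1 kb from the start for ENPP1, 62.9 kb for ALPL, 71.7 kb for RUNX2, 102 kb for BMP2, 134 kb for ANKH, 171 kb for SPP1, 201 kb for MGP, 256 kb for IBSP and 287 kb for SP7. For these 9 genes, between 15.6% and 63.2% of coding genes had a run as near.

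**Figure D2:**
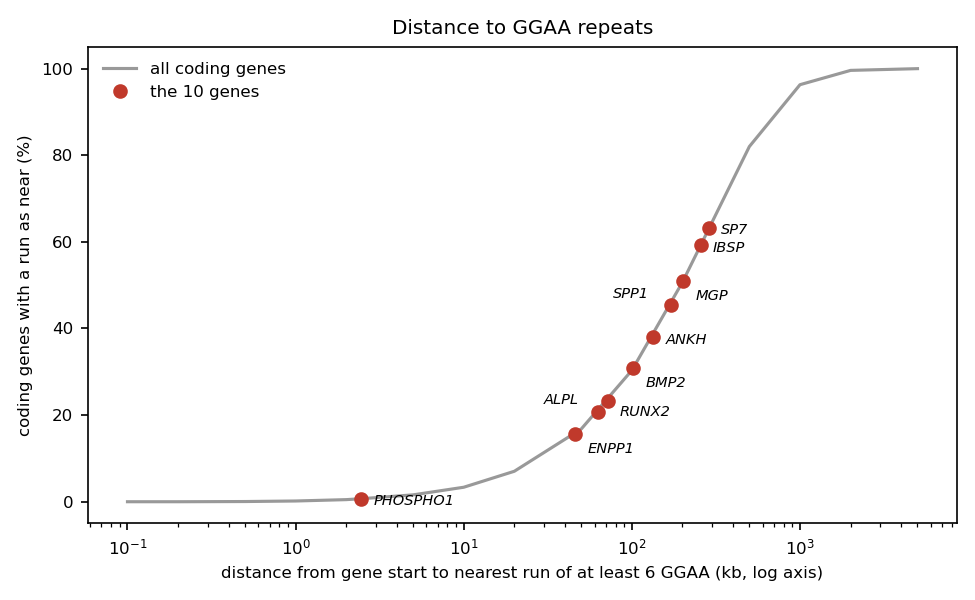
Distance from the start of each of the 10 genes to the nearest run of at least 6 GGAA (points, kb on a log axis) and the share of coding genes with a run as near (percent; grey line, all coding genes). PHOSPHO1 lies at 2.46 kb, where 0.699% of coding genes have a run as near, and the other 9 genes lie at 46.1 kb or more.

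RefSeq promoter sequences (GRCh38.p14) were matched for 7 of the 10 genes, with 10 start sites in all; SP7, MGP and BMP2 had no entry. The 250 bases before each start were searched on both strands for GGAA, the core of ETS factor sites, and for TGTGGT, a core of RUNX sites. Each GGAAGGAA would also count as GGAA, and no TGTGGT found overlaps a GGAA. GGAA was present before all 10 starts, 1 to 6 times, and 92.7% of the 35116 promoters in the table hold it, with a median of 3. GGAAGGAA was present before none of them and TGTGGT before 2, the upstream RUNX2 start and the SPP1 start, against 11% of all promoters. Those 2 and PHOSPHO1 are printed, as the genes with the motif and the gene with the repeat, with both motifs in capitals on either strand (TTCC and ACCACA are the reverse complements). They are chr17:49230788-49231037 (minus strand), chr6:45328080-45328329 (plus) and chr4:87975464-87975713 (plus).
PHOSPHO1 promoter: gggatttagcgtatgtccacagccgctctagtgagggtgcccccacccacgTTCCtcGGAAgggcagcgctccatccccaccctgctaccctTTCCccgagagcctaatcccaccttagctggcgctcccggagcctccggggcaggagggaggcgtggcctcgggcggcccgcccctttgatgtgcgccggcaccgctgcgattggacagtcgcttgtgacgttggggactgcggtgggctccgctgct
RUNX2 upstream promoter: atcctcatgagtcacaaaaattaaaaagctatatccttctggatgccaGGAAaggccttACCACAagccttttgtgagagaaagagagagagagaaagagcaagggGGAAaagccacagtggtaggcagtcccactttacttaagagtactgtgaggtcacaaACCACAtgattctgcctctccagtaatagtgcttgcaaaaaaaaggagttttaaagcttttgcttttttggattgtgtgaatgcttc
SPP1 promoter: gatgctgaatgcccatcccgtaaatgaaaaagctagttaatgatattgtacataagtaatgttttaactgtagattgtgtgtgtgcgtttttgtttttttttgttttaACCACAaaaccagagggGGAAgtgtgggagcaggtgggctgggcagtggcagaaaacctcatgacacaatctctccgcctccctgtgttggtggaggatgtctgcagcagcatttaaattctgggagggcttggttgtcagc

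RUNX2 has TGTGGT 2 times in this window, 191 and 87 bases before the start, and 0.971% of all promoters hold it at least 2 times. In SPP1 the single TGTGGT begins 142 bases before the start. A match says only that these letters are present, and nothing here shows that a factor sits on them.

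ALPL, the tissue-nonspecific alkaline phosphatase that hydrolyses pyrophosphate at the cell surface, did not move one way in the 3 lines. In TC-32 the siNeg libraries held 2.05, 1.96 and 1.94 CPM and the siFLI1 libraries 10.2, 10.9 and 10.2 CPM, a log2 fold change of 2.4 (SE 0.126). TC-71 had 46.1, 43.2 and 49.3 CPM in siNeg and 35.9, 32.8 and 32.6 CPM in siFLI1, a log2 fold change of -0.46 (SE 0.0632). A673 had 23.5, 22.7 and 22.1 CPM in siNeg and 27.7, 31.8 and 30.0 CPM in siFLI1, a log2 fold change of 0.39 (SE 0.0536). The libraries of the siRNAs overlapped in no line, so ALPL was higher with siFLI1 in TC-32 and A673 and lower in TC-71. The 5.26-fold higher level of TC-32 siFLI1 libraries, 10.4 ± 0.431 CPM (SD, n = 3), was still below the siNeg level of A673 (22.7 ± 0.681 CPM) and of TC-71 (46.2 ± 3.03 CPM). Levels per kilobase were divided by the length of all annotated exons of a gene, merged. By this measure, PHOSPHO1 was 18.2 ± 0.885 times the level of ALPL in TC-32 siNeg libraries and 0.110 ± 0.0162 times in siFLI1 (SD, n = 3). For TC-71 this ratio was 2.48 ± 0.0890 with siNeg and 0.393 ± 0.0302 with siFLI1, and for A673 it was 2.20 ± 0.0341 and 0.0242 ± 0.00357. In all 3 lines, PHOSPHO1 was thus the higher of these phosphatases per kilobase with siNeg and the lower with siFLI1.

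ENPP1, the ectoenzyme that makes pyrophosphate from ATP, was higher with siFLI1 in TC-32 and lower in A673. Its levels were 56.5, 55.8 and 53.6 CPM in TC-32 siNeg libraries and 76.6, 66.4 and 76.0 CPM with siFLI1, a log2 fold change of 0.40 (SE 0.0587). A673 went from 57.7, 60.7 and 59.0 CPM to 33.0, 31.0 and 31.5 CPM, a log2 fold change of -0.89 (SE 0.0430). In TC-71 the libraries overlapped, with 72.7, 75.5 and 68.7 CPM in siNeg and 71.8, 77.4 and 85.8 CPM in siFLI1, a log2 fold change of 0.12 (SE 0.0583).

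ANKH, a membrane protein that carries pyrophosphate precursors out of the cell, differed between siRNAs only in TC-71 by the overlap of libraries. There the siNeg libraries held 28.4, 24.6 and 25.4 CPM and the siFLI1 libraries 37.2, 38.9 and 37.6 CPM, a log2 fold change of 0.53 (SE 0.0660). In TC-32 the level was 1.18 ± 0.336 CPM in siNeg and 1.32 ± 0.367 CPM in siFLI1 (SD, n = 3), and in A673 it was 4.23 ± 0.307 and 4.32 ± 0.275 CPM. The log2 fold changes of 0.19 (SE 0.278) and 0.030 (SE 0.0841) were smaller than their errors. Their sign is not settled: without TC-32 siFLI1 replicate 2 the first was -0.0050, and with library size alone the second was -0.073.

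ALPL and ENPP1 are opposed enzymes of pyrophosphate, and their ratio of levels per kilobase was taken within each library. It was 0.137 ± 0.00246 in TC-32 siNeg libraries and 0.552 ± 0.0692 in siFLI1 (SD, n = 3). In A673 it was 1.47 ± 0.0714 and 3.60 ± 0.359, and in TC-71 it was 2.46 ± 0.279 and 1.67 ± 0.234. The ratio was higher with siFLI1 in TC-32 and A673 and lower in TC-71, without overlap of libraries in any line.

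MGP, a small secreted protein whose carboxylated glutamates bind calcium and keep soft tissue free of mineral, had the largest siFLI1 difference of the 10 genes in each line, among those tested. In TC-32 the siNeg libraries held 3.06, 3.02 and 2.57 CPM and the siFLI1 libraries 974, 952 and 929 CPM. TC-71 had 1.04, 1.12 and 1.15 CPM against 65.4, 62.8 and 67.8 CPM. A673 had 0.0416, 0.0738 and 0.101 CPM, from 5, 9 and 12 counts, against 13.5, 13.3 and 11.4 CPM. The lowest siFLI1 library of each line was far above the highest siNeg library. The log2 fold changes of TC-32, TC-71 and A673 were 8.36 (SE 0.0644), 5.89 (SE 0.10) and 7.44 (SE 0.158), or 330-fold, 59.4-fold and 176-fold in the means. MGP (ENSG00000111341.9) lies on chromosome 12 from 14880864 to 14885857, and 2.63% of its exon bases are shared with a gene on the opposite strand.

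SPP1, which encodes osteopontin, an acidic phosphoprotein of bone matrix, was well measured only in A673. There the siNeg libraries held 2.39, 2.12 and 2.04 CPM and the siFLI1 libraries 32.2, 30.2 and 31.3 CPM, without overlap, a log2 fold change of 3.84 (SE 0.0662). TC-71 had 1, 0 and 2 counts in siNeg and 1, 12 and 11 in siFLI1, a ratio of 6.88 with an exact 95% interval of 2.09 to 35.7 that covers counting error only; the libraries overlapped. TC-32 had 2, 0 and 1 counts in siNeg and 4, 1 and 5 in siFLI1, a ratio of 2.77 (0.713 to 15.7). A difference was thus not detectable at this depth in TC-32. IBSP, which encodes bone sialoprotein, another acidic protein of mineralising matrix, had 0 counts in all 18 libraries, which allows up to 3 counts, or between 0.0246 and 0.152 CPM depending on the library.

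RUNX2, the master transcription factor of osteoblasts, was higher with siFLI1 in each line and reached much the same level in all 3. In TC-32 the libraries held 15.8, 15 and 14.7 CPM with siNeg and 41.6, 42.3 and 38.9 CPM with siFLI1. TC-71 held 9.99, 11.4 and 11.7 CPM against 46.3, 49.5 and 46.1 CPM, and A673 5.24, 5.21 and 5.41 CPM against 41.4, 41.6 and 41.0 CPM. The groups overlapped in no line, and the log2 fold changes were 1.43 (SE 0.0684), 2.10 (SE 0.0740) and 2.97 (SE 0.0496). With siNeg the 3 lines were ordered TC-32, TC-71, A673 from high to low, without overlap, and A673 was at 5.29 ± 0.112 CPM (SD, n = 3). With siFLI1 the libraries of TC-32 (40.9 ± 1.79 CPM) and A673 (41.3 ± 0.348 CPM) overlapped, and TC-71 was slightly higher at 47.3 ± 1.88 CPM. Levels of different lines come from separately quantified tables, with another counter for TC-71, and were not tested against each other.

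SP7, or osterix, which acts downstream of RUNX2, never exceeded 5 counts in a library and passed the filter in no line. Its summed counts were 3 in siNeg and 6 in siFLI1 in TC-32, 3 and 10 in TC-71 and 3 and 2 in A673. The exact 95% intervals of the ratios, 0.355 to 10.3, 0.739 to 16.2 and 0.0578 to 6.04, all include 1, so no difference was detectable at this depth. In TC-71 each siFLI1 library lay above each siNeg library in CPM, on 5, 2 and 3 counts against 2, 1 and 0. The siRNAs overlapped in TC-32 and A673. The higher RUNX2 level thus stood beside SP7 counts at or near the floor of 3 in all 3 lines.

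BMP2, a bone morphogenetic protein that induces osteoblast genes, was lower with siFLI1 in both lines where it was tested. The TC-32 libraries held 4.90, 5.09 and 5.51 CPM with siNeg and 3.18, 2.41 and 2.61 CPM with siFLI1, a log2 fold change of -0.93 (SE 0.151). The TC-71 libraries held 11.3, 11.1 and 11.1 CPM against 4.95, 5.35 and 4.58 CPM, a log2 fold change of -1.17 (SE 0.106). A673 had 5, 5 and 4 counts with siNeg and 3, 4 and 10 with siFLI1, a ratio of 1.26 (0.585 to 2.76), and was not tested. The siRNAs did not overlap in TC-32 and TC-71 and overlapped in A673.

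**Figure D3:**
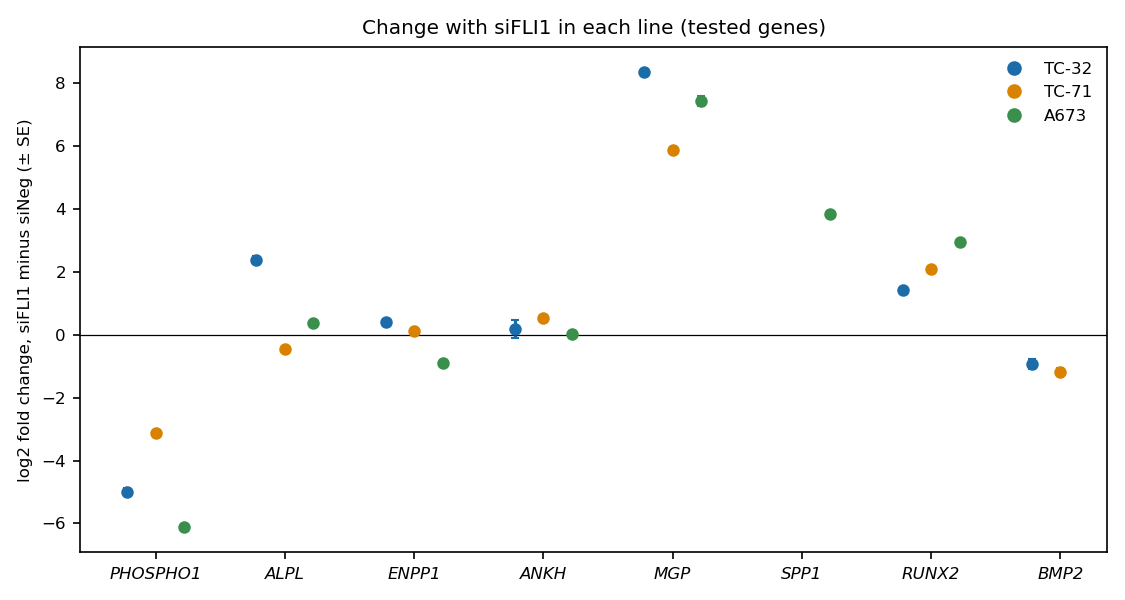
Log2 fold change of siFLI1 minus siNeg (points, with bars of 1 SE from edgeR) for the 8 genes tested in at least 1 line, coloured by line. MGP and RUNX2 lie above 0 and PHOSPHO1 below 0 in all 3 lines, while ALPL and ENPP1 lie on both sides.

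In each line, 7 of the 10 genes passed the filter on low counts (filterByExpr). In TC-32, 4 of the 7 were past an edgeR adjusted p of 0.05 in the higher direction and 2 in the lower, where 41.3% and 40.1% of all 16227 tested genes were. In TC-71, 3 were higher and 3 lower, where 36.8% and 35% of all genes were. In A673, 4 were higher and 2 lower, where 35.6% and 35.4% of all genes were. Complete separation of siFLI1 from siNeg libraries was common among all tested genes. It held for 82.6% in TC-32, with siFLI1 above for 41.8% and below for 40.7%. It held for 73.8% in TC-71 (37.9% above, 36% below) and for 73.6% in A673 (36.6% above, 37% below). All these shares come from the contrast that chose the genes, and nothing is read from them. Of the 6 genes tested in all 3 lines, MGP and RUNX2 were higher in each and PHOSPHO1 lower in each, where 18.9% of all genes tested in all 3 were higher in each, 19% lower in each, and 37.9% in the same direction in each. ALPL passed in all 3 lines with mixed directions.

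How far the siFLI1 effect differed between lines was taken from interaction contrasts in edgeR over 19610 genes. These contrasts are differences of the within-line effects that were known when the genes were chosen, so for the 10 genes they are given as sizes with standard errors and without p-values. Between TC-32 and A673, 6 of the 8 genes fitted had an adjusted p under 0.05, as had 62.1% of all genes. Between TC-32 and TC-71 the count was 5 of 8, where 53.6% of all genes passed, and between A673 and TC-71 it was 7 of 8, where 51.6% passed; nothing is read from these counts. For ALPL, the effect in TC-32 exceeded that in TC-71 by 2.85 on the log2 scale (SE 0.135) and that in A673 by 2.03 (SE 0.134). The ALPL effect in A673 exceeded that in TC-71 by 0.82 (SE 0.0852). For ENPP1 the differences were 1.32 (SE 0.0833) for TC-32 minus A673, -1.05 (SE 0.0823) for A673 minus TC-71 and 0.27 (SE 0.0858) for TC-32 minus TC-71.

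PHOSPHO1 had its largest effect in A673, with A673 minus TC-71 at -3.01 (SE 0.129) and TC-32 minus A673 at 1.14 (SE 0.218). TC-32 minus TC-71 was -1.88 (SE 0.170). FLI1 itself was lowered most in A673 and least in TC-32 by log2 fold change, so the order of the lines by FLI1 (A673, TC-71, TC-32) was not that of PHOSPHO1 (A673, TC-32, TC-71). The RUNX2 effect was also largest in A673, with TC-32 minus A673 at -1.51 (SE 0.0863) and A673 minus TC-71 at 0.84 (SE 0.0889). TC-32 minus TC-71 was -0.67 for RUNX2 (SE 0.0933), so its order of lines was the same as that of FLI1. The effects of MGP and ALPL had another order, TC-32, A673, TC-71 from high to low. A relation of these effects to the fall of FLI1 was not tested.

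For MGP, TC-32 minus TC-71 was 2.47 (SE 0.219) and A673 minus TC-71 was 1.5 (SE 0.303). Its TC-32 minus A673 difference of 0.97 (SE 0.324) rests on the 5 to 12 counts of A673 siNeg libraries, and without A673 siNeg replicate 3 it was 0.66. For BMP2, the differences of A673 from TC-32 (TC-32 minus A673 -1.22, SE 0.524) and from TC-71 (1.46, SE 0.520) rest on 3 to 10 counts in A673. The first of these BMP2 differences crossed to the other side of the threshold in 11 of 18 alternatives, among them 7 of 12 left-out libraries, and without A673 siFLI1 replicate 3 the differences were -0.56 and 0.79. ANKH had -0.54 (SE 0.121) for A673 minus TC-71, and smaller differences of 0.20 (SE 0.239) and -0.34 (SE 0.238) for TC-32 minus A673 and TC-32 minus TC-71. The SPP1 differences had SE of 1.10 to 1.48, which leave large differences possible.

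**Figure D4:**
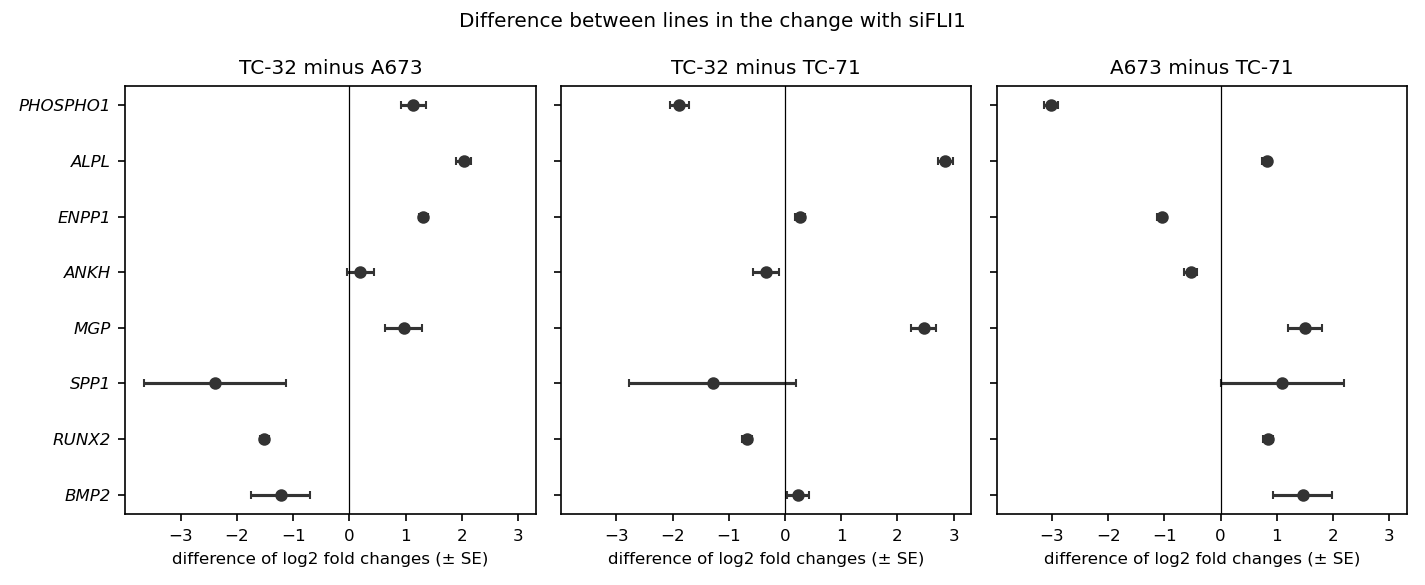
Difference between lines in the log2 fold change with siFLI1 (points, with bars of 1 SE), for 8 genes and the 3 pairs of lines. ALPL is on the right of 0 in all 3 panels, and the SPP1 bars are the widest.

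The levels in siNeg libraries also differed between the lines. They come from separately quantified tables, with another counter for TC-71, and were not tested against each other. Per kilobase of exon, PHOSPHO1 was at 38.5 ± 1.98 CPM per kilobase in TC-71, 16.8 ± 0.357 in A673 and 12.1 ± 0.384 in TC-32 (SD, n = 3). It was the highest of the 10 genes by this measure in every line with siNeg. ALPL followed in TC-71 (15.5 ± 1.02) and A673 (7.63 ± 0.228), and ENPP1 in TC-32 (4.84 ± 0.135). With siFLI1, MGP was the highest by this measure in TC-32 (330 ± 7.78) and TC-71 (22.6 ± 0.864), and ALPL in A673 (10.0 ± 0.697). Such orders depend on the merged exon length, which was 7250 bases for SPP1, 2980 for ALPL and 2887 for MGP. Before division, A673 siFLI1 libraries held 41.3 CPM of RUNX2, 31.2 CPM of SPP1 and 29.8 CPM of ALPL. RUNX2 reached 4.99 ± 0.219, 5.77 ± 0.230 and 5.05 ± 0.0425 CPM per kilobase with siFLI1 (TC-32, TC-71, A673). The order of ANKH levels was TC-71, A673, TC-32 and that of BMP2 was TC-71, TC-32, A673, each without overlap between siNeg groups.

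The genes around these 10 were then described from 8 lists, which were drawn up with earlier results known. Adjusted p-values of list genes are therefore a description and no independent support. Counts are of genes past an edgeR adjusted p of 0.05 in a line, where 81.4%, 71.9% and 71% of all genes were called (TC-32, TC-71, A673). The median log2 fold change of all genes tested was 0.022, 0.018 and -0.0066 in that order of lines. List medians cover tested genes only. A gene near 0 counts with 1 siRNA passes the filter only through the other, so it enters a median only as a large change. Examples are BGN in TC-71 (0, 0 and 1 counts with siNeg) and, as a fall, AHSG in A673 (8, 4 and 6 counts with siFLI1). The medians are thus a description. Genes that share exon bases with another gene are uncertain. On the same strand this holds whatever the strand setting, as for CHKB (72.5%), BGLAP (40.9%), VKORC1 (34.7%) and PHOSPHO2 (28.8%). Whether counting used strand is not given in the sources used here, so genes sharing bases on the opposite strand are uncertain too. These include VKORC1 (58.0%), ADIPOQ (46.4%), CEBPA (43.9%), PCYT2 (28.3%), SMPD3 (27.6%), ETNK2 (23.6%), DLX6 (22%) and CHKA (16.3%).

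**Figure D5:**
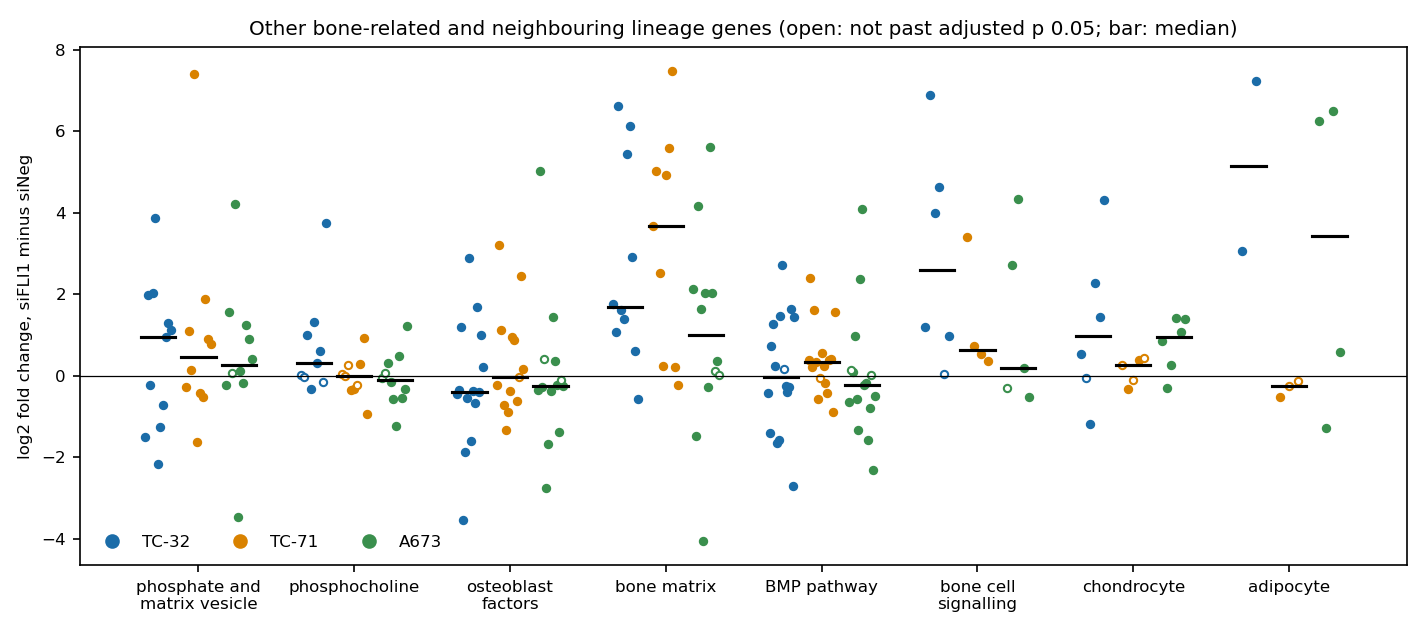
Log2 fold change of siFLI1 minus siNeg for each tested gene of the 8 lists (points, coloured by line; open points are not past an edgeR adjusted p of 0.05), with a bar at the median. Medians of the bone matrix list, over tested genes only, lie above 0 in all 3 lines, at 1.70, 3.68 and 1.01. Some of these genes passed the filter only through siFLI1 libraries, such as BGN in TC-71.

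Of 11 genes of phosphate and pyrophosphate handling and of matrix vesicles, 6 rose and 5 fell in TC-32, 6 rose and 4 fell in TC-71, and 6 rose and 3 fell in A673. The median log2 fold change was 0.96, 0.46 and 0.26. NT5E, or CD73, which makes adenosine and phosphate from AMP, rose by 2.02, 7.41 and 4.23 on the log2 scale (TC-32, TC-71, A673; edgeR adjusted p = 3.53e-20, 7.31e-30 and 5.51e-19). The phosphate importers moved apart: SLC20A2 rose by 1.99, 1.10 and 1.56, and SLC20A1 had -1.49, -0.28 and -0.22, each past the threshold. The annexins ANXA2, ANXA5 and ANXA6, calcium-binding proteins found in matrix vesicles, rose in all 3 lines by 0.41 to 1.89. ENPP3, a relative of ENPP1 that lies 60.6 kb from it, fell in all 3 lines, with -2.16, -1.63 and -3.45, as did the mitochondrial pyrophosphatase PPA2.

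Genes that make or use phosphocholine and phosphoethanolamine, the substrates of PHOSPHO1, formed a list of 10. Among them, 5 rose and 1 fell in TC-32, 2 rose and 3 fell in TC-71, and 3 rose and 5 fell in A673, with medians of 0.32, 0.0036 and -0.10. PHOSPHO2, the closest relative of PHOSPHO1, was not past the threshold in any line, at 0.014, 0.037 and -0.058 (edgeR adjusted p = 0.969, 0.868 and 0.597). PCYT1A, the regulatory enzyme of phosphatidylcholine synthesis, rose by 0.32, 0.30 and 0.48. SMPD3, a sphingomyelinase needed for bone mineral and a source of phosphocholine, rose by 3.75 in TC-32 and 1.23 in A673, from levels under 0.1 CPM.

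Among 15 osteoblast transcription factors and partners, falls were the more frequent call in TC-32 (5 rose, 9 fell) and A673 (3 rose, 8 fell), and TC-71 had 6 of each. Their medians were -0.39, -0.035 and -0.26. DLX5, a homeobox factor that acts with RUNX2 in osteoblasts, fell from 59.8 ± 3.59 to 5.20 ± 0.878 CPM in TC-32 (SD, n = 3). Its fall was from 16.8 ± 1.53 to 6.80 ± 0.643 CPM in TC-71, and in A673 from 38.1 ± 0.471 to 5.65 ± 0.111 CPM. DLX6, MSX1, ATF4 and CBFB, the binding partner of RUNX proteins, also fell in all 3 lines, CBFB by 0.44, 0.21 and 0.36 on the log2 scale. MSX2 rose in all 3, by 2.88, 0.96 and 1.45. RUNX1, a relative of RUNX2, rose by 3.22 in TC-71 and by 5.02 in A673, from 2 to 4 counts in A673 siNeg libraries. In TC-32, RUNX1 had 1, 0 and 2 counts with siNeg and 6, 18 and 11 with siFLI1, and was not tested. The list mixes factors that act with RUNX2 and factors that restrain it, such as TWIST1. TWIST1 fell in TC-32 (-0.67) and A673 (-1.37) and did not pass in TC-71 (-0.035, edgeR adjusted p = 0.665). Its relative TWIST2, and ZNF521, rose in TC-32 (1.69 and 1.00) and were not tested in the other lines. HEY1 rose in TC-71 (2.45) and fell in TC-32 (-0.40).

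In the list of 16 bone matrix proteins and their modifying enzymes, 9 rose and 1 fell in TC-32, 8 rose and 1 fell in TC-71, and 7 rose and 3 fell in A673, of 10, 9 and 12 tested. COL1A1, the main chain of bone collagen, rose from 77.7 to 3384 CPM in TC-32. The rise was from 82.5 to 2495 CPM in TC-71, and for A673 from 47.9 to 2351 CPM. COL1A2, its partner chain, was at 866 CPM in A673 siNeg libraries and rose to 3530.4 CPM, but reached only 13.6 CPM in TC-32 and 3.40 CPM in TC-71 with siFLI1. SPARC, or osteonectin, rose by 1.77, 3.68 and 2.14 on the log2 scale, OGN (osteoglycin) by 6.62, 5.02 and 1.65 and PHEX by 1.62, 2.52 and 2.04. GGCX, the carboxylase that activates MGP, rose by 0.61, 0.22 and 0.37. VKORC1, another enzyme of the list, fell in TC-32 (-0.57) and TC-71 (-0.23) and did not pass in A673 (0.023). The late markers of mineralising bone and tooth DMP1, MEPE, DSPP and IFITM5 had at most 5 counts in any library. BGLAP, or osteocalcin, the classical product of mature osteoblasts, was at most 1.10 CPM in the mean of any group, and rose in TC-32 (1.09) and fell in A673 (-1.47).

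BMP2 belongs to a pathway whose receptors, antagonists, SMADs and ID genes were counted as a list of 17. In TC-32, 7 rose and 8 fell, in TC-71, 10 rose and 4 fell, and in A673, 4 rose and 9 fell, with medians of -0.033, 0.34 and -0.22. ACVR1 and BMPR2, receptors of BMP ligands, rose in all 3 lines, ACVR1 by 1.29, 1.61 and 0.99. ID2, SMAD5, SMAD9 and ACVR2B fell in all 3, ID2 with -2.71, -0.88 and -2.32. The ID genes, direct targets of BMP signals in many cells, did not move together in TC-32 and TC-71, where BMP2 itself was lower. ID1 and ID3 rose in TC-32 (1.65 and 1.44) and TC-71 (0.41 and 1.56), while ID2 fell in both. In A673, ID3 fell (-0.49) and ID1 did not pass (0.011, edgeR adjusted p = 0.872).

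Of 9 genes by which osteoblasts, osteocytes and osteoclasts signal, 5 rose and 0 fell in TC-32, 4 rose and 0 fell in TC-71, and 3 rose and 1 fell in A673. CSF1, the growth factor of osteoclast precursors, rose by 4.01, 3.40 and 2.72, and VDR, the vitamin D receptor, by 4.65, 0.74 and 4.35. SOST, which encodes the osteocyte product sclerostin, had 0 counts in TC-32 siNeg libraries and was at least 4.46-fold higher with siFLI1. The median of the list in TC-32 was 2.60, or 1.68 with SOST at this bound, and it was 0.63 in TC-71 and 0.20 in A673. TNFSF11 and FGF23 had at most 1 count in any library. Of 8 chondrocyte markers, 4 rose and 1 fell in TC-32, 1 rose and 1 fell in TC-71, and 5 rose and 1 fell in A673, while ACAN had at most 2 counts in any library; the medians were 0.99, 0.28 and 0.96. Of 6 adipocyte markers, 2 rose in TC-32, 1 fell in TC-71, and 3 rose and 1 fell in A673, with medians of 5.14, -0.25 and 3.42 over 2, 3 and 4 genes tested. FABP4 rose to 2.71 CPM in TC-32 and 0.348 CPM in A673, from at most 1 count in any siNeg library of these lines. CEBPA rose in TC-32 (3.06) and fell in TC-71 (-0.51) and A673 (-1.27). ADIPOQ had at most 7 counts in any library. Their summed levels lay from 46.9 to 160 CPM for the chondrocyte list and from 1.13 to 23.4 CPM for the adipocyte list over all libraries, and their part in the results was not tested.

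The genes whose 3 log2 fold changes were nearest to those of PHOSPHO1, among 11372 genes searched, were CEACAM6 (distance 0.973, with -4.83, -2.26 and -5.69 in TC-32, TC-71 and A673), RP11-552J9.9 (1.05) and TRAV1-2 (1.27). For MGP they were LOXL4 (distance 1.45, with 7.89, 6.05 and 6.09), L1CAM (1.67) and GPRC5A (2.46). The distance is Euclidean over the 3 lines, and it describes likeness of change alone. The coding neighbours of both genes were looked up after their values were known. ABI3, 0.141 kb from PHOSPHO1, was at 0.27 on the log2 scale in TC-32 (edgeR adjusted p = 0.510), fell in A673 (-0.74, adjusted p = 7.42e-07) and was not tested in TC-71, and ZNF652 on the other side rose in TC-32 and TC-71 by 0.32 and 0.33. C12orf60, which overlaps MGP, fell in TC-71 (-0.63) and A673 (-0.51) and did not pass in TC-32 (0.39). ERP27, 28.2 kb from MGP, rose in TC-32 by 5.69 (edgeR adjusted p = 2.57e-08) and was not tested in the other lines.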

How the data were processed

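The authors deposited expected counts for TC-32 and A673, which the table names attribute to RSEM, and counts for TC-71, attributed to Subread. Neither is scaled to depth. Per the submitters' processing notes, cutadapt 4.4, STAR 2.7.3, Subread 2.0.3 and limma 3.38.3 were used on GRCh38. Their roles, the annotation release and the strand setting are not given in the sources used here, so levels of different lines may differ by counter. The line of the TC-32 and TC-71 columns rests on the table name.

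Rounding made the expected counts whole. A separate edgeR 4.0.16 fit was made per line under R 4.3.3 (filterByExpr, TMM, robust quasi-likelihood F-test, Benjamini-Hochberg over all genes tested). Line differences were fitted in 1 model of 18 libraries. Standard errors come from unshrunken coefficients. Other settings tried were DESeq2 1.42.0, RLE factors, scaling by library size only, testing without the low-count filter, the replicate number as a block, only the 12 libraries compared, and each library left out. The fits were tested on simulated data. Intervals and the floor of 3 counts cover counting error only. Replicate pairs differed by more than sampling noise (lowest chi-square per degree of freedom 2.45).

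The genes, lists and tests were chosen with earlier results of these data known. Genes named are the 10, FLI1, list genes, and the 3 genes nearest in pattern to PHOSPHO1 and to MGP with a log2 CPM of at least 1 in the higher group of each line. Neighbouring genes were added later. Positions are from GENCODE release 44, read with Python 3.11.15. The values of 1 gene of the lists are not reported here.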

Additional observations from a re-analysis of the deposited data

Results flagged for a closer look

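The effect of siFLI1 on the genes below differed between lines past the threshold of the interaction test in edgeR, which is why they are listed. The genes were chosen with these effects known, so the values are a description. In log2 units, TC-32 minus A673 was 1.14 for PHOSPHO1, 2.03 for ALPL, -1.51 for RUNX2, 0.97 for MGP, 1.32 for ENPP1 and -1.22 for BMP2. TC-32 minus TC-71 was -1.88 for PHOSPHO1, 2.85 for ALPL, -0.67 for RUNX2, 2.47 for MGP and 0.27 for ENPP1. A673 minus TC-71 was -3.01 for PHOSPHO1, 0.82 for ALPL, 0.84 for RUNX2, 1.5 for MGP, -1.05 for ENPP1, -0.54 for ANKH and 1.46 for BMP2. ALPL was higher with siFLI1 in TC-32 and A673 and lower in TC-71, and ENPP1 was higher in TC-32 and lower in A673. The line, the table and the medium or counter cannot be told apart in these pairs.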

How the results depend on the processing

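The counts of genes called stayed within 1.5 times under every alternative run, from 12905 to 14690 in TC-32, 11524 to 13141 in TC-71 and 12352 to 14043 in A673. Among the 10 genes and their line differences, only ANKH changed sign, with no value past the threshold: in A673 it was -0.073 with library size alone and -0.025 to 0.076 over left-out libraries, and in TC-32 left-out libraries gave -0.0050 to 0.42. With scaling by library size only, the A673 median over all genes was -0.11 in place of -0.0066. Of the within-line changes of the 10 genes, only ENPP1 in TC-71 crossed the threshold, without siFLI1 replicate 1; over single libraries left out its log2 fold change ranged from 0.051 to 0.18. The MGP difference of TC-32 and A673 ranged from 0.66 to 1.24 over left-out libraries. It was not past the threshold without A673 siNeg replicate 3. The BMP2 difference of TC-32 and A673 was not past the threshold with library size alone (-1.11), no low-count filter (-1.22), DESeq2 (-1.22) or the replicate block (-1.21), and left-out libraries gave -1.52 to -0.56. The BMP2 difference of A673 and TC-71 ranged from 0.79 to 1.75, and without A673 siFLI1 replicate 3 it was not past the threshold. The SPP1 difference of TC-32 and A673 was past it in DESeq2 (-2.32). BMP2, MGP and SPP1 are limited by low counts in at least 1 line, and the cause of these shifts was not tested.

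Small list counts moved. Without the filter, phosphocholine genes lower in TC-32 went from 1 to 2, bone matrix genes lower in TC-32 and in TC-71 from 1 to 2, and adipocyte genes higher in TC-71 from 0 to 1. DESeq2 gave 2 bone matrix genes lower in TC-32, 0 chondrocyte genes higher in TC-71 and 1 adipocyte gene higher in TC-71. Library size alone gave 2 bone cell signalling genes lower in A673. Left-out libraries gave 1 to 2 for phosphocholine genes lower in TC-32, 1 to 2 for bone matrix genes lower in TC-32, 0 to 2 in TC-71, 1 to 2 for signalling genes lower in A673 and 0 to 2 for chondrocyte genes higher in TC-71.

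Same-numbered libraries did not deviate together (correlations from -0.205 to 0.0531), so the replicate numbers were not taken as pairs. The replicate block changed no other call among the 10 genes.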
